A study of Mus musculus with 24 samples.

Results

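The genes described here are *Pcp2*, *Car8*, *Cbln3*, *Cbln1*, *En2*, *Zic1*, *Zic2*, *Zic4* and *Eomes*, 9 of the 21364 genes that could be named on these arrays. They were selected from known genes of the cerebellum because *Zic4*, *Eomes* and *Pcp2* had been seen to vary between the brain arrays, so their values in the brain, and the brain differences between genotypes, are a description without a test. Every probe whose accession belonged to them was taken, which gave 13 of 55681 probes. *Car8*, *Zic1*, *Zic4* and *Eomes* have 2 probes each and the others 1. A gene with 2 probes is represented by the brighter probe in the brain, and the second is given beside it.

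Each of 6 male mice gave RNA from its brain, skeletal muscle, liver and heart. The array methods do not state whether each brain was used whole. The mice were back-crossed 4 times to C57BL6 (C57BL/6N in the methods). Of them, 3 were wild type littermates (WT) and 3 were homozygous for a *Rap1* knock-in allele (KI). This allele changes an amino acid of RAP1, a protein of the telomere-binding shelterin complex, and was made to abolish its binding to TRF2. It was introduced into the germline with CRISPR/Cas9, so no promoter limits it to a cell type. WT mice are numbered WT1, WT2 and WT3 and KI mice KI1, KI2 and KI3. The first of each genotype was aged 5 months, and all others were aged 2 months. Each mouse gave 1 array per tissue, hence 24 arrays, and a difference between genotypes rests on 3 mice against 3.

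The cerebellum is built of a few neuron types in a stereotyped circuit. Granule cells, its most abundant neurons, send parallel fibres to the dendrites of Purkinje cells, whose axons are the sole output of the cerebellar cortex. *Zic* genes encode zinc finger transcription factors that pattern the dorsal neural tube and stay on in granule cells, and *Zic1* and *Zic4* lie head to head on the same chromosome. *Eomes* (Tbr2) encodes a T-box factor of unipolar brush cells, which is also known from mitral and tufted cells of the olfactory bulb.

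A level is the log2 of the background-subtracted signal relative to the log2 75th percentile over the whole array, which is thus at a level of 0. This percentile ranged from 873.7 to 1366 on the brain arrays and from 470.7 to 1389 over all 24, and no member was saturated. A signal that the scanner software did not call well above background gives only a bound. The labelled tissues carried their own markers, with exceptions that bear on the values below. Neural transcripts were held by the muscle of KI3 and, less so, by the muscle of KI1 and the hearts of KI1 and KI3. The summed linear level of 9 pan-neuronal genes in the muscle of KI3 was 73.6, against 12.3 to 20.4 in the other 5 muscles, and all 14 forebrain genes of the marker list were well above background, against 3 to 9. In the muscle of KI1, 8 of the 9 pan-neuronal genes were well above background, against 5 or 6 in the muscles of KI2 and the WT mice. The neurofilament gene *Nefl* was at -3.70 there, and not well above background at -7.37 to -7.19 in KI2 and the WT mice. The liver gene *Alb* was also higher in 1 brain, WT1, at 0.57 against -6.04 to -3.87 in the other 5.

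Upstream sequences were found for 5 of the 9 genes, *Pcp2*, *Cbln3*, *Zic1*, *Zic4* and *Eomes*. Those of *Pcp2*, *Zic1*, *Zic4* and *Eomes* are shown, since *Pcp2* leads one of the patterns across the brain arrays, *Zic4* and *Eomes* lead the other, and *Zic1* is the neighbour of *Zic4* with a pattern in between. Each is the 250 bases before a transcript start, 5′ to 3′ on the strand of the gene, from RefSeq on the GRCm38.p6 build. Capitals mark matches on either strand to any of 5 motifs, none of which can be a part of another. The first was AGGTCA, the half-site of nuclear receptors such as RORA. A second was CAGCTG, an E-box bound by bHLH factors. The homeodomain core was searched as TAATTA. A GC box, which Sp factors bind, was searched as GGGCGG. The last was TATAAA, the core promoter element.
*Pcp2*, chr8:3625548-3625797, minus strand, the outermost of 4 starts: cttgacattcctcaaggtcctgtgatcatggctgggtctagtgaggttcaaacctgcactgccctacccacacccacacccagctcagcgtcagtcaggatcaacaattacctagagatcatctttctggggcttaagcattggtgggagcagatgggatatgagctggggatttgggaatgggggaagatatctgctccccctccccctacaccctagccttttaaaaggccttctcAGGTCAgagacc
*Zic1*, chr9:91365769-91366018, minus strand: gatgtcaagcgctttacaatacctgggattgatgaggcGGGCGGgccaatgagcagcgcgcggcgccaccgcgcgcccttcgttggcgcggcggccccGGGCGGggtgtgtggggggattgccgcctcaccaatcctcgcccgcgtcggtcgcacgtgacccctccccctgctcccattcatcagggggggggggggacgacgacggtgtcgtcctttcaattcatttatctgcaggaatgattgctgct
*Zic4*, chr9:91368722-91368971, plus strand: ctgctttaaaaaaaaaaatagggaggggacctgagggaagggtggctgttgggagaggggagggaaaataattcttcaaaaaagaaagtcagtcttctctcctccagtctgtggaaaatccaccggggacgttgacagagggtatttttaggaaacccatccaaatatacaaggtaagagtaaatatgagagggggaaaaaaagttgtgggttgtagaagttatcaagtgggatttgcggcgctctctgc
*Eomes*, chr9:118477939-118478188, plus strand: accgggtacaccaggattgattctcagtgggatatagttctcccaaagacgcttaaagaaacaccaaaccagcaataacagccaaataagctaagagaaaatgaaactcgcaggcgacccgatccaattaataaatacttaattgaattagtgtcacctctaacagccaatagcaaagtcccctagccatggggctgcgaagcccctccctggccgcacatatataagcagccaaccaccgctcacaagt
The *Zic1* window held 27 CG dinucleotides and was 66.0% G and C, with 2 GC boxes, a motif present in 32.7% of all 32851 windows of this length. *Pcp2* held 1 CG and 1 AGGTCA, which 14.0% of windows hold. The windows of *Zic4* and *Eomes* held 4 and 8 CG dinucleotides and no match to any of the 5 motifs, while the median window held 6 CG. The E-box, the homeodomain core and the core promoter element are found in 13.0%, 4.84% and 12.4% of windows and in none of these 4. For *Pcp2* this holds for the start shown. The window of another *Pcp2* start, chr8:3625283-3625532, held 1 TAATTA and 1 TATAAA and no AGGTCA.

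The 9 genes followed 2 main patterns over the 6 brains. *Pcp2*, *Car8*, *Cbln3*, *Cbln1* and *En2* were high in KI1 and KI2, lower in WT1 and WT2, and lowest in WT3 and KI3, so that the KI group held the highest brain and 1 of the lowest pair. *Zic4* and *Eomes* were higher in each of the 3 KI brains than in any WT brain, KI3 included. *Zic1* and *Zic2* lay between these patterns.

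**Figure D1:**
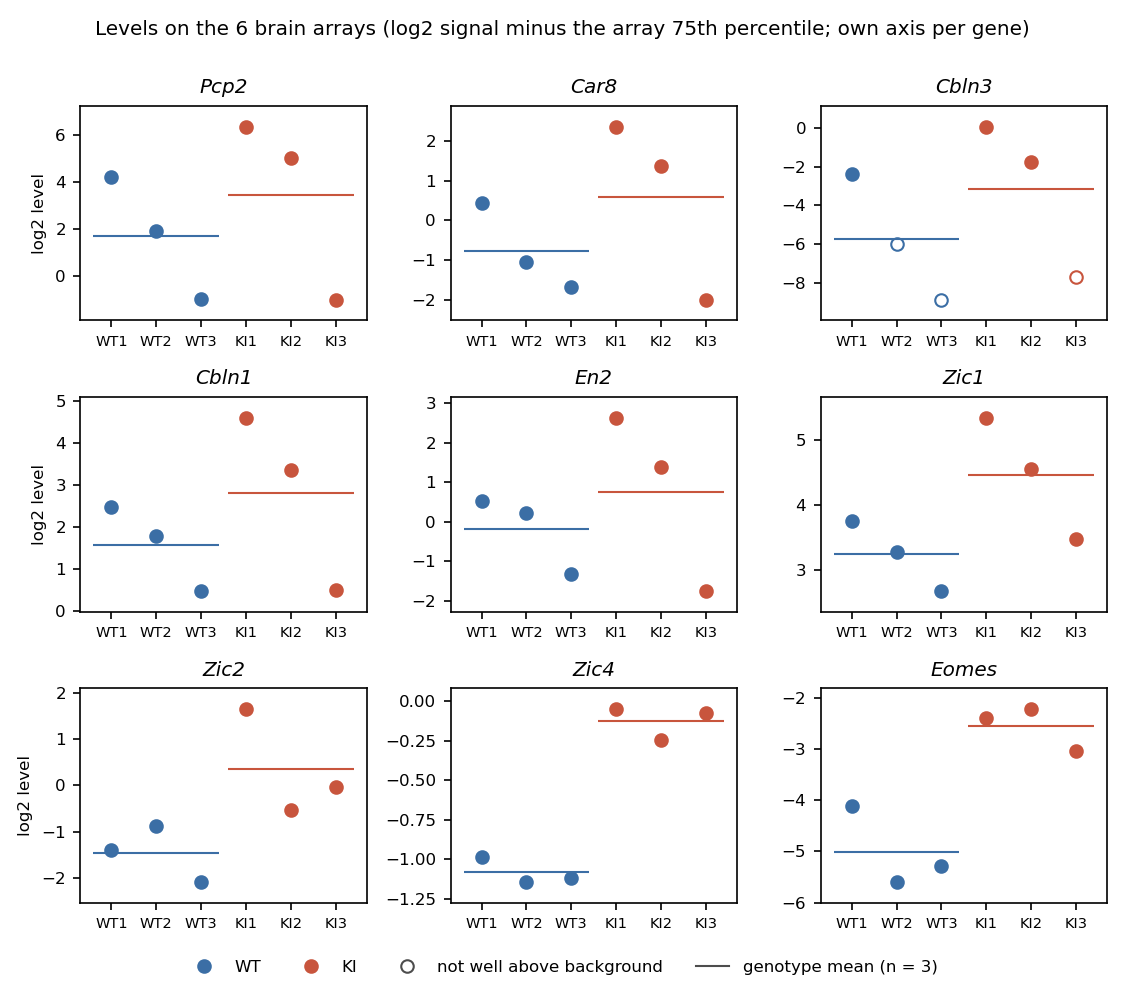
Log2 levels of the 9 genes on the 6 brain arrays, with an axis of its own for each gene, WT in blue and KI in red, horizontal lines at the mean of 3 mice and open circles for signals not well above background. WT3 and KI3 hold the lowest values in the first 5 panels, and all KI brains lie above all WT brains for *Zic2*, *Zic4* and *Eomes*.

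*Pcp2* encodes a modulator of G protein signalling that is nearly restricted to Purkinje cells and retinal bipolar cells. Its level was 4.21, 1.93 and -0.96 in the brains of WT1, WT2 and WT3, and 6.36, 5.03 and -1.0 in those of KI1, KI2 and KI3. The highest brain thus exceeded the lowest 164-fold, with 1 of the lowest pair in each genotype. The group means were 1.72 ± 2.59 in WT and 3.46 ± 3.92 in KI (SD, n = 3 each), and the difference of 1.74 was smaller than the SD of either group.

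*Car8* encodes a carbonic anhydrase-related protein without enzymatic activity that binds the inositol trisphosphate receptor of Purkinje cells. It measured 0.45, -1.05 and -1.67 in the WT brains and 2.36, 1.38 and -1.99 in the KI brains. The KI brains again held both the highest values and the lowest. The second *Car8* probe gave -0.56, -1.76 and -2.57 in WT and 2.12, 0.31 and -3.40 in KI, the same order of mice, and its correlation with the first was 0.99 over the 6 brains.

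Cerebellins are secreted proteins of the C1q family, and CBLN1 from granule cells organises their synapses on Purkinje cells, while CBLN3 is a granule cell partner of CBLN1. *Cbln1* was at 2.47, 1.79 and 0.47 in WT and at 4.61, 3.35 and 0.49 in KI. *Cbln3* was at -2.40 in WT1, 0.07 in KI1 and -1.76 in KI2, and in WT2, WT3 and KI3 it was not well above background, with signals at -5.98, -8.86 and -7.69. *Cbln3* is thus the only member that some brains did not measure, and its 3 measured brains are those with the highest *Pcp2* and *Cbln1*.

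*En2* encodes a homeodomain factor that patterns the midbrain and hindbrain and remains on in the cerebellum. Its level was 0.53, 0.22 and -1.34 in the WT brains and 2.63, 1.39 and -1.76 in the KI brains. This is the order of mice seen for *Pcp2* and for both *Car8* probes, KI1 first and KI3 last, with the WT brains in between.

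*Zic1* had levels of 3.76, 3.28 and 2.68 in WT and 5.34, 4.55 and 3.47 in KI. KI1 and KI2 were above every WT brain, and KI3 lay between WT2 and WT1. The group means were 3.24 ± 0.54 and 4.45 ± 0.94 (SD, n = 3 each), a difference of 1.22, and the second *Zic1* probe differed by 0.84, with KI3 at -1.10 just under WT1 at -0.98. In both probes KI3 was thus above WT2 and WT3 and below WT1.

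*Zic2* measured -1.39, -0.89 and -2.09 in WT and 1.66, -0.53 and -0.04 in KI. All KI brains were above all WT brains, but KI2 lay close above WT2, and KI1 stood well above the other KI brains. The difference of the means, 1.82, was 3.04 between the 5-month-old mice and 1.21 between the 2-month-old ones.

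*Zic4* measured -0.99, -1.15 and -1.12 in WT and -0.05, -0.25 and -0.08 in KI. The SD within a genotype was 0.08 in WT and 0.11 in KI, against a difference of the means of 0.96, a 1.95-fold higher signal in KI. The second probe repeated this, with -1.63, -1.53 and -1.61 in WT and -0.47, -0.63 and -0.77 in KI, a difference of 0.97. The difference was 0.94 between the 5-month-old mice and 0.97 between the 2-month-old ones, and the brains of the 2 ages also lay on different slides.

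*Eomes* was dim in every brain, at -4.12, -5.60 and -5.29 in WT and at -2.41, -2.22 and -3.04 in KI, and was nonetheless well above background on all 6 arrays. The groups did not overlap, and the difference of the means was 2.45, or 5.45-fold. The second probe was well above background in WT1 at -5.50 but not in WT2 and WT3, and in KI1, KI2 and KI3 it measured -4.23, -4.14 and -5.10. With normexp background correction, which shrinks dim signals, the difference of the first probe was 1.29.

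In the brain, the KI mean was the higher one for all 9 genes, by 0.95 to 2.62 and with a median of 1.34, while the median over all 37835 probes measured there was -0.05. In 3 of the 9, *Zic2*, *Zic4* and *Eomes*, all KI brains were above all WT brains, which held for 4.00% of all probes. The members were selected on these arrays, so nothing is read from this count. No probe of the brain passed an adjusted p under 0.05 with limma (0%), and 992 had an unadjusted p under 0.05. Fewer cells of a type and less RNA per cell cannot be told apart in whole tissue.

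How far single mice set these differences varied between the patterns. Without KI3, the difference was 3.97 for *Pcp2*, 2.63 for *Car8*, 4.90 for *Cbln3*, 2.40 for *Cbln1* and 2.21 for *En2*. Without KI1, it was 0.29 for *Pcp2*, 0.45 for *Car8*, 0.35 for *Cbln1* and 0.01 for *En2*, and *Cbln3* was lowest without WT3, at 1.06. For *Zic1* the same 2 mice set the range, from 0.77 without KI1 to 1.71 without KI3. The *Zic4* difference lay between 0.92 and 1.02 and that of *Eomes* between 2.15 and 2.89, whichever mouse was left out.

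**Figure D2:**
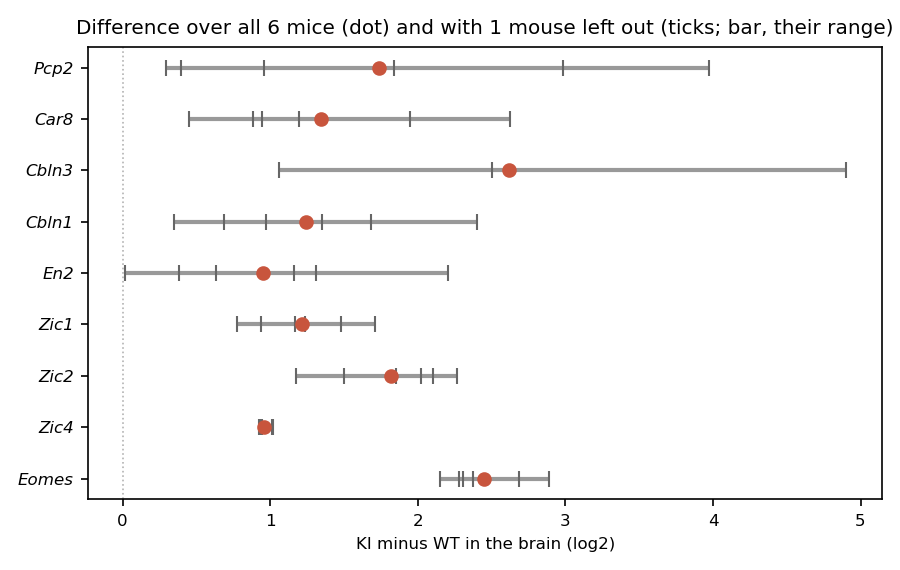
Difference of the mean log2 level between KI and WT brains for each gene over all 6 mice (dot) and over 5 mice, leaving out a different one each time (ticks, joined by a bar; *Cbln3* has fewer ticks because it was below the filter without some mice). The bars of *Pcp2*, *Car8*, *Cbln3*, *Cbln1* and *En2* are long, from 0.01 for *En2* to 4.90 for *Cbln3*, and that of *Zic4* is the shortest.

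The spread over the 6 brains was large for these genes, which is the property that led to their choice. The SD was 3.58 for *Cbln3*, 3.12 for *Pcp2*, 1.76 for *Car8*, 1.65 for *En2*, 1.63 for *Cbln1*, 1.45 for *Eomes*, 1.29 for *Zic2*, 0.96 for *Zic1* and 0.53 for *Zic4*, against a median of 0.33 over all probes measured in the brain. *Zic4*, with the smallest spread of the 9, varied more than 74.5% of all probes, while its SD within a genotype was 0.08 in WT and 0.11 in KI.

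Over the 6 brains, Pearson correlations among *Pcp2*, *Car8*, *Cbln3*, *Cbln1* and *En2* ranged from 0.95 to 0.99. *Zic4* and *Eomes* correlated at 0.93 with each other, at 0.32 and 0.54 with *Pcp2*, and at 0.72 and 0.82 with *Zic1*. *Zic1* correlated at 0.88 with *Pcp2* and 0.94 with *Cbln1*, and *Zic2* at 0.84 with *Zic1* and 0.54 with *Pcp2*. These values are descriptions over 6 points that share arrays, mice and slides.

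**Figure D3:**
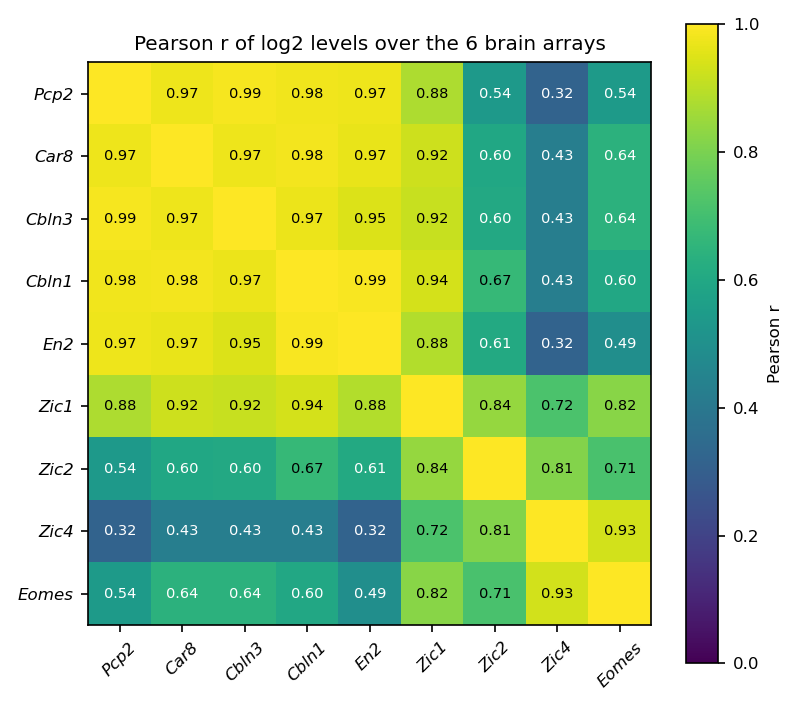
Pearson correlation of log2 levels over the 6 brain arrays for each pair of the 9 genes, by colour from 0 to 1 and as a number. The block of *Pcp2*, *Car8*, *Cbln3*, *Cbln1* and *En2* holds values from 0.95 to 0.99, and *Zic4* reaches 0.93 with *Eomes* but 0.32 with *Pcp2*.

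Among 2502 other genes measured in all 6 brains with an SD of at least 0.5, those most like *Pcp2* were *Mapk13* (r of 0.99), *Crtam*, *G6pd2*, *Zfp385c* and *Dao*. *Dao*, which encodes D-amino acid oxidase, was at 0.50, -0.38 and -2.39 in WT and at 3.11, 1.72 and -2.79 in KI. *Crtam* spanned an even wider range, from -5.85 in WT3 to 2.54 in KI1. Those most like *Zic4* were *Dpf3*, *Sdc1*, *Afap1l2*, *Gsdma* and *Tnfrsf12a*, with r from 0.96 to 0.98, and those most like *Eomes* were *Hopx*, *Asgr1*, *Tnfrsf12a*, *Gsdma* and *Sdc1*, with r from 0.94 to 0.96. *Dpf3* was at -3.30, -3.61 and -3.31 in WT and at -2.20, -2.59 and -2.42 in KI. *Sdc1*, *Gsdma* and *Tnfrsf12a* stand in both of the last 2 lists, which is 3 of 5 in each.

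Other genes of the cerebellum, from marker lists, showed which pattern the label of the set describes. All 9 granule cell genes and 15 of 16 Purkinje cell genes were measured in the brain, and 0 of them passed an adjusted p under 0.05 between genotypes with limma (all adjusted p were 1). *Fat2*, a cadherin of granule cell parallel fibres, was at 0.22, -1.14 and -2.66 in WT and at 2.79, 1.09 and -3.09 in KI, the order of *Pcp2*. *Gabra6*, the GABA-A receptor subunit typical of granule cells, was chosen after its values were seen and was at 0.34 and -2.38 in WT1 and WT2, at 3.00 and 1.48 in KI1 and KI2, and not well above background in WT3 and KI3. *Slc1a6*, the glutamate transporter of Purkinje cells, ranged from 2.13 in KI3 to 4.75 in KI1, and *Cdh15* was highest in KI1 at 1.26.

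All 3 Bergmann glia genes were measured and 0 were called. In 1 of the 3, *Hopx*, all KI brains were above all WT brains, which held for 4.00% of all probes measured in the brain. *Hopx* was at 2.70, 1.87 and 2.29 in WT and at 3.13, 3.08 and 3.07 in KI. *Gdf10* and *Slc1a3* overlapped between the genotypes. *Gdf10* was lowest in KI3, at -1.85, and *Slc1a3* was at 3.98 in KI1 against 4.17 in WT1. Some genes of both lists varied over a narrower range than *Pcp2*. *Pvalb* ranged from 2.79 to 5.57, *Pcp4* ranged from 5.50 to 6.94, *Itpr1*, the receptor that CAR8 binds, from 4.77 to 6.32, *Gabrd* from 3.43 to 4.44 and *Grin2c* from 3.09 to 4.33. KI3 had the lowest level of *Pcp4*, *Itpr1*, *Pvalb*, *Dner*, *Gabrd* and *Etv1*. *Homer3*, chosen after its values were seen, had a difference of 1.17 and a standard error of 0.37. Among the 9 granule and 15 Purkinje cell genes measured, it alone had all KI brains above all WT brains. This held for 4.00% of all probes, so nothing is read from it.

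Genes of the midbrain and hindbrain outside the cerebellum differed among themselves in their order over the brains. Of 10 such genes 9 were on the array and 7 were measured in the brain, with a median difference of 2.02 and 0 called. *Hoxb5*, a segment identity gene of the caudal hindbrain and spinal cord, was at -2.36 and -4.49 in WT1 and WT2 and at 0.33 and 0.32 in KI1 and KI2, and it was not well above background in WT3 and KI3. *Hoxc4* was at -3.90 and -3.53 in WT1 and WT2 and at 0.19 and -0.40 in KI1 and KI2, with the same 2 brains at background. The serotonin transporter gene *Slc6a4* had another order, with WT2 highest at -0.59 and KI2 next at -1.11, and its lowest values were again those of WT3 and KI3. *Tph2*, which encodes the serotonin-synthesising enzyme of neurons, was also highest in WT2, at -1.33, with a difference of 0.08, and *Lmx1b* stayed between -3.18 and -2.71. The summed linear level of the 9 genes ranged from 0.236 to 1.47 in WT and from 0.224 to 4.03 in KI, and *En1*, named for its absence, was not well above background in any brain.

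Forebrain genes did not order the brains that way. All 14 were measured, with a median difference of -0.44, and their summed level ranged from 132 to 162 in WT and from 97.0 to 143 in KI. *Tbr1*, a T-box gene related to *Eomes*, was at 4.93, 3.76 and 4.23 in WT and at 3.54, 4.03 and 3.48 in KI. *Rgs9*, a striatal gene, was highest in WT2 at 5.28 and lowest in KI3 at 2.32. Pan-neuronal genes had a median difference of -0.02, and *Snap25* ranged from 5.86 to 6.71.

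For *Eomes*, the lists of other cells known to express it were set beside it. Neither the olfactory bulb nor the unipolar brush cell list held a gene with all KI brains above all WT brains. This held for 4.00% of all probes measured in the brain, so nothing is read from its absence in such short lists. Of the 7 olfactory bulb genes, *Cdhr1* was at -1.47, -0.73 and -1.02 in WT and at -1.08, -0.31 and -1.33 in KI, *Doc2g* ranged from -1.83 to -0.89, and *Th* was lowest in KI3 at -0.28. Among the unipolar brush cell genes, *Otx2* ranged from 0.11 to 0.93 and *Lmx1a* from -4.61 to -2.30, and their differences were 0.18 and 0.63 with 0 called.

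Markers of the choroid plexus and the meninges were also higher in the KI brains in part. In 5 of 8 choroid plexus genes and 3 of 11 meningeal genes all KI brains were above all WT brains (*Kl*, *Folr1*, *Kcnj13*, *Aqp1* and *Slc4a5*, and *Lum*, *Col1a2* and *Ogn*, some of them chosen after their values were seen), against 4.00% of all probes measured in the brain, and 0 were called. *Folr1* was at 0.78, 0.87 and -0.56 in WT and at 1.58, 0.98 and 1.21 in KI, and *Col1a2* was at 2.27, 2.24 and 2.65 in WT and at 2.65, 2.96 and 4.44 in KI. The summed level of the choroid plexus genes was 25.4 to 66.0 in WT and 65.4 to 122 in KI, and that of the meningeal genes 19.0 to 32.4 and 30.6 to 67.9, with KI3 the highest for the meninges. The part of these cells in the differences of the members was not tested.

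**Figure D4:**
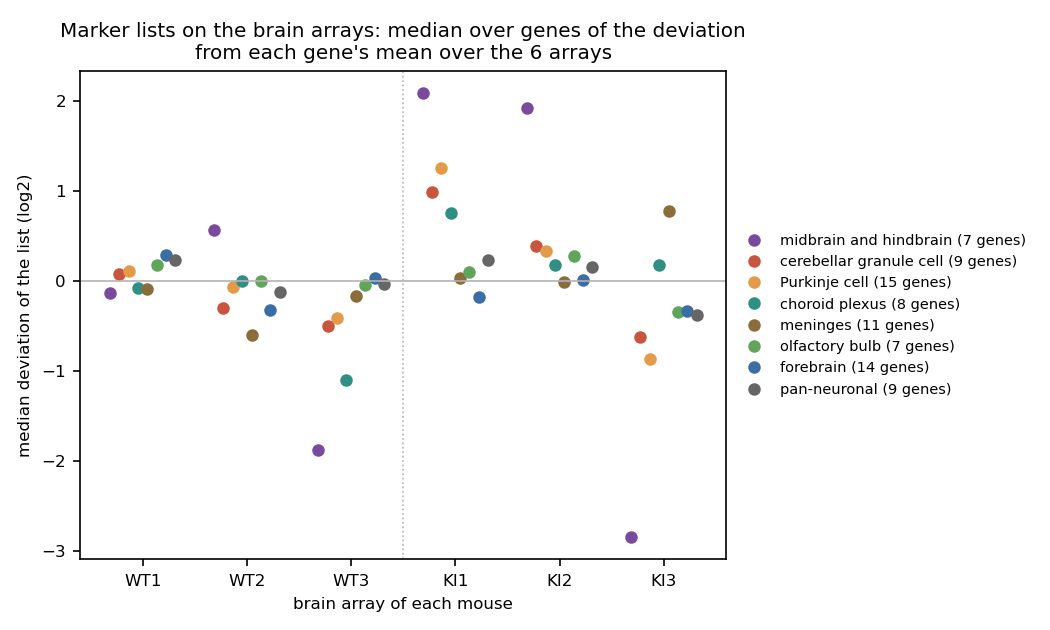
For each marker list, the median over its measured genes of the deviation from the mean of the 6 brain arrays (log2, vertical axis) on the array of each mouse (horizontal axis), by colour. Midbrain and hindbrain genes and, less widely, granule and Purkinje cell genes are above 0 in KI1 and KI2 and below 0 in WT3 and KI3, while the forebrain list stays between -0.33 and 0.29 and the meningeal list is highest in KI3.

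Relatives and partners of the members were measured too. *Zic5*, chosen after its values were seen, differed by 0.80 with a standard error of 0.34, and KI3 was below WT1. *Cbln2* was lower in all KI brains, by -0.70 (0.23), as was *Car11*, another carbonic anhydrase-related gene, by -0.49 (0.20), while *Cbln4* and *Car10* overlapped between the genotypes. None of the 6 family members and none of the 9 measured partners and upstream factors was called by limma (adjusted p of 1 for each). The neurexin genes *Nrxn2* and *Nrxn3*, whose products bind cerebellins, differed by -0.11 and -0.05, and the granule and Purkinje lineage factors *Atoh1* and *Ptf1a*, also named for their absence, were not well above background in any brain.

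The next comparison asked how the members differ between the brain and the other tissues, with limma over all 24 arrays and 8 groups and a call at an adjusted p under 0.05 and a log2 difference of at least 1. All 9 were tested against each tissue, some of them only through the brain: no array measured *Cbln3* in any of the other tissues, *Cbln1* in the liver, *Zic2* in the liver and heart, or *Eomes* in the liver and muscle. Such a member had to be higher in the brain to be tested. Higher in the brain were 8 of 9 against liver, where 28.9% of all probes tested were, 8 of 9 against heart (22.8%) and 9 of 9 against muscle (24.3%). A high share was built into the choice and the filter, since the members were also picked as genes of the brain, and nothing is read from these counts.

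*Zic1*, *Zic2* and *Cbln1* had large differences. *Zic1* was at a mean of 3.85 in the brain, and 2 of 6 livers and 4 of 6 hearts measured it, at no more than -5.17 and -2.88. *Cbln1* had no measured signal in any liver and was at least 268-fold higher in the brain. *Zic2* was at least 40.1-fold higher than in liver and at least 34.5-fold higher than in heart. Where no array of the other tissue measured the gene, the filter had fixed the direction, so no p is given beside the bound. For a probe without a measured signal, the bound is taken against the lowest signal that was well above background on each array.

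*Zic4* was 3.92 above liver (standard error 0.42), and its second probe, which no array of the other tissues measured, was at least 27.1-fold, 23.4-fold and 16.3-fold higher in the brain than in liver, heart and muscle. *Eomes* was at least 4.26-fold higher than in liver and at least 2.69-fold higher than in muscle. With normexp correction the *Eomes* differences were 0.94, 0.63 and 0.37 against liver, heart and muscle, below the log2 threshold of 1, and that of *Cbln3* against muscle was 0.44.

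For *Pcp2* the brains did not all stand apart from the other tissues. Its mean over the 6 brains was 3.92 above liver (standard error 0.90, limma adjusted p of 0.000537), 4.48 above heart and 3.45 above muscle. The WT3 and KI3 brains, at -0.96 and -1.0, lay within the range of the 6 muscles, -1.41 to -0.60, and close above that of the livers, -1.50 to -1.20. *En2* behaved alike against muscle, where it ranged from -1.94 to -0.82, so that only 4 of 6 brains were above all muscles, and its difference of 1.56 (limma adjusted p of 0.00811) was 0.95 over the WT arrays alone (adjusted p of 0.0566).

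*Car8* was the exception among the members, since it was higher in the liver than in the brain. It was at 1.83, 1.48 and 1.01 in the WT livers and at 1.48, 1.32 and 1.49 in the KI livers, levels that only the KI1 brain exceeded and the KI2 brain reached. The difference of the means was -1.52 (standard error 0.51, limma adjusted p of 0.0108), but it was -0.87 without KI3 and had an adjusted p of 0.0505 without WT2. Its second probe did not differ beyond its error, at -0.02 (0.62), and the probes therefore disagree about the liver. Against heart the difference was 0.75 (limma adjusted p of 0.202), which was 1.28 without KI3 (adjusted p of 0.00428) and was -0.22 over the WT arrays alone.

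**Figure D5:**
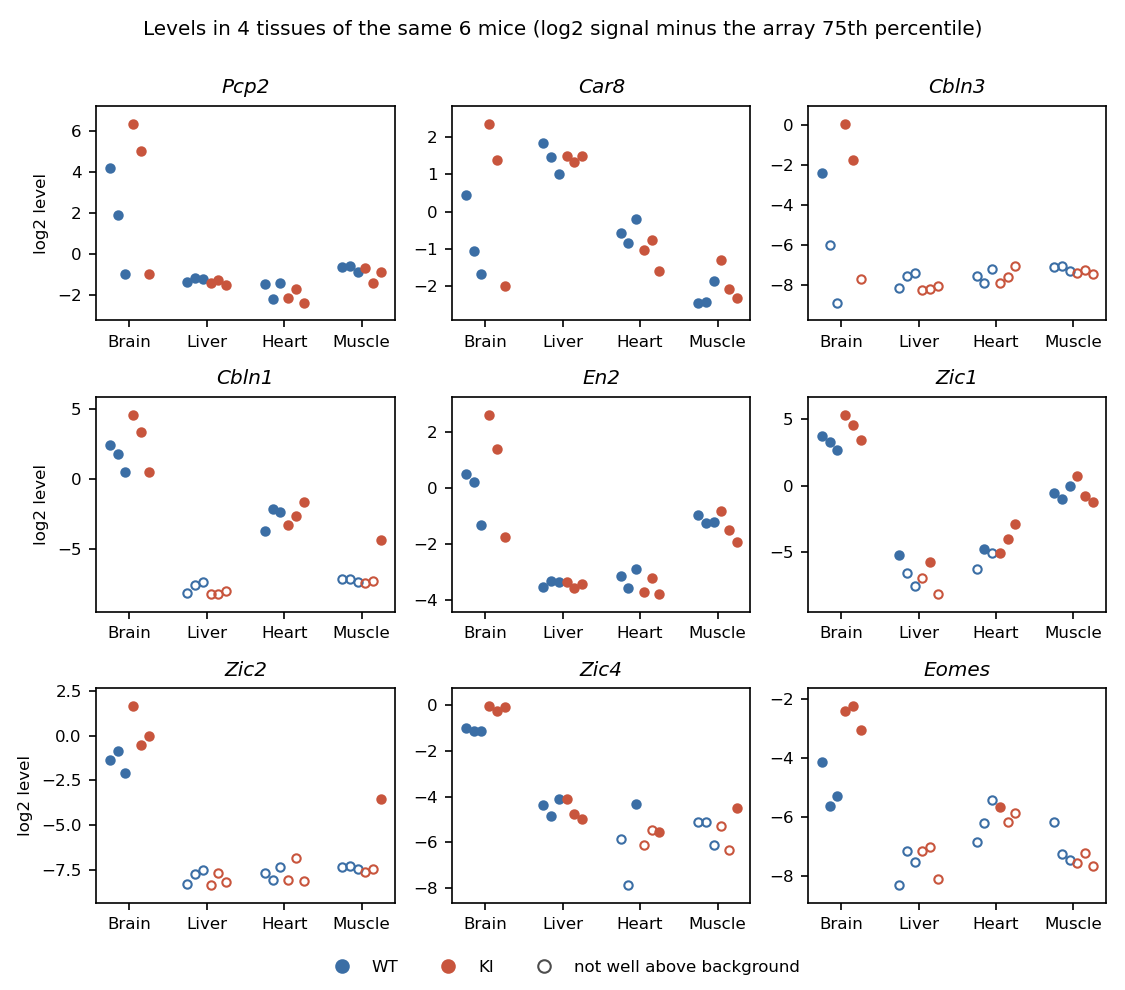
Log2 levels of the 9 genes in the brain, liver, heart and muscle of the same 6 mice, WT in blue and KI in red, in the order WT1 to WT3 and KI1 to KI3 within each tissue, with open circles for signals not well above background. *Car8* is highest in the liver for most mice, *Zic1* is measured in all muscles, and *Zic2* and *Cbln1* are measured in the muscle of KI3 alone.

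In skeletal muscle *Zic1* was measured in all 6 mice, at -0.53, -1.02 and -0.02 in WT and at 0.77, -0.73 and -1.20 in KI, levels 4.30 (standard error 0.51) below those of the brain. Its second probe was at a like level in liver, heart and muscle, with means of -2.53, -2.65 and -2.65. *Cbln1* was measured in all 6 hearts, at -3.76, -2.14 and -2.34 in WT and at -3.30, -2.65 and -1.67 in KI, and in no liver.

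The muscle of KI3, which held neural transcripts, measured 7 of the 9 members, against 4 in each of the other 5 muscles. *Zic2* was at -3.54 there and not well above background at -7.61 to -7.29 in the other muscles, and *Cbln1* was at -4.37 against -7.48 to -7.21. *Zic4* was also measured in this muscle alone, at -4.48. *Pcp2*, at -0.86, lay within the range of the other muscles, and *Cbln3* and *Eomes* were not well above background.

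Between the genotypes outside the brain, 4 members could be tested in the liver, 5 in the heart and 4 in the muscle, those that 3 or more of the 6 arrays measured above background. None was called, and limma called 0% of all probes in each of the 3 tissues, with 750, 2616 and 802 probes at an unadjusted p under 0.05. In none of these members did all KI mice lie on one side of all WT mice, which held for 5.85% of the probes in liver, 14.7% in heart and 6.45% in muscle. *Zic4*, with its narrow groups in the brain, was measured on every liver array, at -4.36, -4.83 and -4.11 in WT and at -4.09, -4.78 and -4.97 in KI, a difference of -0.18 with a standard error of 0.31. The other differences in the liver were -0.14 for *Pcp2*, -0.03 for *En2* and -0.01 for *Car8*.

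In the heart the difference furthest from 0 was that of *Zic1*, 1.38 (standard error 0.62, limma adjusted p of 0.646), at -6.22, -4.73 and -5.08 in WT, where 1 of 3 arrays measured it, and -5.05, -3.97 and -2.88 in KI, where all 3 did. It was 0.84 without KI3 and 0.40 with normexp correction. Neural transcripts were higher in 2 KI hearts: all 9 pan-neuronal genes were well above background in KI1 and KI3, against 5 or 6 in the other 4 hearts, and *Nefl*, a neurofilament gene, was at -2.43 and -0.83 there and not well above background in the other 4 hearts. Their summed linear level, which *Snap25* dominates, was 25.4 to 52.1 in WT and 36.8 to 50.4 in KI, and their part in the *Zic1* values was not tested. *Pcp2*, *Car8* and *En2* were lower in the KI hearts, by -0.38, -0.59 and -0.37, with limma adjusted p from 0.653 to 0.729. In the muscle the differences were -0.27 for *Pcp2*, 0.34 for *Car8*, -0.28 for *En2* and 0.13 for *Zic1*, each within its standard error or little more, and without KI3 they were -0.33, 0.55, -0.02 and 0.54. Without KI1, whose muscle also held neural transcripts, these 4 differences were -0.42, 0.04, -0.58 and -0.44.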

How the data were processed

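RNA from 4 tissues of 6 mice was labelled with Cy3 (200 ng each) and hybridized to 24 1-color Agilent arrays. The authors deposited spot intensity that Feature Extraction 12.0.3.1 had corrected for background and spatial trend, not normalized across arrays. A second table that the authors deposited holds a score per spot, the z-score of its log10 signal on that array, and recomputed ones lay within 0.005. Per the file headers, the other flags used mark spots above background, saturated or outlying. The methods name no test for the arrays.

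From each log2 processed signal the log2 75th percentile of the array was subtracted, after removal of 3671 control spots and of outlier spots and averaging of repeated spots. Probes were named by accession through RefSeq (GRCm38.p6; 28325 probes named; the array design is on mm9, so no gene coordinates were used). A probe measured above background by 3 or more of the 6 arrays of a tissue was tested in limma 3.58.1 (R 4.3.3; two-sided) with Benjamini-Hochberg adjustment over all tested probes, between genotypes within a tissue and between tissues over 8 groups. Tables and figures were made with Python 3.11.15, pandas 2.3.3, numpy 2.4.6 and matplotlib 3.10.9. The fits were tested on simulated data. The number of arrays limits the precision.

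The members, the 15 marker lists and the tests were chosen with earlier results of these data known. Named were all members, at most the 5 brightest measured genes of a list, and the 5 genes most correlated with *Zic4*, *Eomes* and *Pcp2*, besides the few marked as chosen after their values were seen or named for their absence. The alternatives were quantile normalization, normexp (offset 50, on median signals), the authors' z-scores, other filters, the mouse, slide or age as a block, other sample sets, trend and robust eBayes, the mean over probes and each mouse left out.

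The same 6 mice gave all tissues, which pairs the arrays. Deviations of the same mouse in 2 tissues correlated from -0.32 to 0.38 over 36 pairs (median 0.09, 17 above 0.1, 24547 probes). Some genes of the marker lists are not reported here.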

Additional observations from a re-analysis of the deposited data

How the results depend on the processing

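With the mouse as a replicate block (paired fit), 11930, 9129 and 9551 probes were called higher in the brain than in liver, heart and muscle, against 11918, 9095 and 9534 without it, and the block changed no call of a member. With normexp correction these counts were 7858, 5584 and 5161. Leaving out each mouse gave 11377 to 12157, 8596 to 9145 and 9121 to 9793. Between genotypes, every setting run called 0 probes in each tissue. Each of the 9 brain differences stayed above 0 in all of its 16 to 20 values, and 7 of the 163 values from alternatives moved by more than the SD within groups. Some of these values could not move. A block for slide or age left the *Pcp2* difference at 1.74, since both genotypes were balanced over slides and ages. Each slide held brains of 1 age, so values within a slide repeat those within an age. The members were chosen on these arrays, and nothing is read from the shared sign.

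Of 27 differences between tissues, 1 changed sign (*Car8* against heart, -0.22 over the WT arrays alone). Calls, which need both the fold and the adjusted p, were lost in 10 values and gained in 1 (*Car8* against heart without KI3). Those lost were *Car8* against liver without KI3 or WT2, *En2* against muscle over the WT arrays and without KI2 (limma adjusted p of 0.0523), *Cbln3* against heart (limma adjusted p of 0.0541) and muscle with normexp, and *Eomes* against all 3 tissues with normexp and against heart over the WT arrays (log2 1.14, limma adjusted p of 0.0689). Of 13 genotype differences outside the brain, none of them called, 4 changed sign. *Car8* in the liver was 0.002 with normexp and -0.22 to 0.19 with a mouse left out. *En2* in the liver was 0.021 after quantile normalization, 0.065 with z-scores and -0.10 to 0.031 with a mouse left out. *Cbln1* in the heart ranged from -0.30 to 0.59 and *Zic1* in the muscle from -0.44 to 0.54 with a mouse left out. The causes were not tested. Normexp was run on median signals, since mean signals were not used here. Dim genes (*Eomes*, *Cbln3*) are limited by their signal over background.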
